A study of Mus musculus with 6 samples.

Results

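BMP ligands and receptors were followed in mouse optic fissure tissue at E11.5, through the genes of the ligands Bmp2, Bmp4, Bmp5, Bmp6 and Bmp7, of the type I receptors Bmpr1a, Bmpr1b and Acvr1, and of the type II receptors Bmpr2 and Acvr2a. Members were the probe sets that the platform annotation assigned to one of these 10 genes alone, so they are 10 of 18193 genes with such a probe set, and 26 of the 45037 gene probe sets on the array. This fissure is a cleft along the underside of the optic cup that fuses during eye development, and it was taken by laser microdissection. The study set 3 FGFR mutant arrays (Six3Cre+;Fgfr1fx/fx;Fgfr2fx/fx) against 3 control arrays (Six3Cre-;Fgfr1fx/fx;Fgfr2fx/fx), all of C57BL/6J strain. Both groups thus carried loxP-flanked alleles of the FGF receptor genes Fgfr1 and Fgfr2, and the mutants also carried Six3Cre, whose Cre acts in the early eye field and forebrain and is not known to act in the mesenchyme, vessels or blood around the fissure. The array titles carry the numbers 8711, 9216 and 9266, 1 mutant and 1 control array each. The labels do not say whether the arrays of a group came from separate embryos, litters or pools, so each p-value measures only the spread between these arrays, which may be technical.

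BMPs are secreted dimers that bring type I and type II serine/threonine kinase receptors together. The type II receptor then phosphorylates the type I receptor, which phosphorylates Smad1, Smad5 and Smad9, and these enter the nucleus with Smad4. In the mouse eye, Bmp4 marks the dorsal optic cup and is needed for lens induction, loss of Bmp7 disturbs eye growth and fissure closure, and Bmpr1b is known from the ventral retina while Bmpr1a is expressed broadly.

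Values are linear array intensities, and log2 differences are mutant minus control on the log2(intensity + 1.7) scale, which understates the change of dim genes. The mutant 8711 array stood apart, with a Gapdh 3 prime signal that was 93.6 times its 5 prime signal, against 4.26 to 15.0 in the other 5 arrays, and a median intensity of 18.1, against 28.7 to 34.6. All 8 markers of optic stalk and ventral optic cup fixed for the tissue check, among them Vax1, Vax2 and Aldh1a3, were above the level set for testing. Marker lists moved with the groups. The summed intensity of the 8 stalk and ventral cup markers was 8075 to 12872 in the mutants and 15537 to 16906 in the controls. This sum was led by Aldh1a3, Nr2f1 and Zic1. All 8 had a log2 difference below 0, but groups overlapped for Nr2f1, Nr2f2, Ntn1 and Vax2. Nr2f2, at -0.01, had a higher linear mean in the mutants (437) than in the controls (271). The summed intensity of 7 neural retina progenitor markers was 2185 to 3113 in the mutants and 4048 to 5597 in the controls. That of 9 pigment epithelium markers was 23329 to 37928 in the mutants and 14592 to 16834 in the controls. Sums overlapped for 8 periocular mesenchyme markers, at 974 to 1730 in the mutants and 507 to 1095 in the controls, though 7 of these 8 had a higher mutant mean. Their median log2 difference was 0.64, and mutants and controls did not overlap for Twist1 (1.73), Prrx1 (0.997) and Foxc1 (0.38). Sums also overlapped for 7 endothelial markers, at 224 to 364 in the mutants and 252 to 549 in the controls. Macrophage, neuron and surface ectoderm sums did not overlap, at 2176 to 2668 in the mutants and 1420 to 1882 in the controls for 7 macrophage markers, 70.8 to 105 in the mutants and 137 to 257 in the controls for 6 neuron markers, and 570.0 to 1527 in the mutants and 451 to 547 in the controls for 7 surface ectoderm markers. The surface ectoderm sum was led by Krt18, at 379 to 1309 in the mutants and 249 to 311 in the controls, while 3 of its 6 tested markers were higher and 3 lower, with a median log2 difference of -0.08. The macrophage sum was led by Csf1r, at 1085 to 1531 in the mutants and 859 to 951 in the controls. Of the 7 macrophage markers 5 were higher and 2 lower, with a median log2 difference of 0.49. Only 3 of the 6 neuron markers were bright enough to be tested, all 3 lower. Lens and red cell sums overlapped, at 345 to 2155 in the mutants and 1080 to 1628 in the controls, and at 17014 to 18290 in the mutants and 13284 to 17778 in the controls. No marker was at 0 in any array. The part of tissue make-up in the differences below was not tested, and in this bulk tissue fewer cells of a type and less RNA per cell cannot be told apart.

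Of the 26 member probe sets, 21 were bright enough to be tested, and they covered every member but Bmp6. None of the 21 passed an adjusted p of 0.05 (limma, Benjamini-Hochberg over 27022 probe sets), as was the case for 0.00% of all probe sets tested. At an unadjusted p under 0.05, 2 were higher in the mutants (9.52%, against 3.02% of all probe sets), 1 each of Bmp2 and Acvr2a, and 2 were lower (9.52%, against 2.55%), both of Bmpr1b. Every mutant value lay above every control value for 6 (28.6%, against 7.08% of all probe sets), and below every control value for 3 (14.3%, against 6.39%). The 6 were 1 of Bmp2, 2 of Bmpr1a, 1 of Acvr1 and 2 of Acvr2a, and the 3 were all of Bmpr1b. Probe sets of one gene measure the same transcripts, so these counts hold fewer independent items than their number. The median log2 difference was 0.25 over the 21 member probe sets and -0.05 over all tested. Without the mutant 8711 array, 8 member probe sets had mutants above controls and 3 below, and without the control 9216 array 7 and 5. Groups of fewer arrays separate more easily, and the share over all probe sets was not counted in these settings. These counts therefore cannot be set against the shares above. The count of 2 lower fell to 1 without control 9216, and the count of 2 higher to 1 without control 9266 or without mutant 9216. Precision is limited by the number of arrays, among other things.

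**Figure D1:**
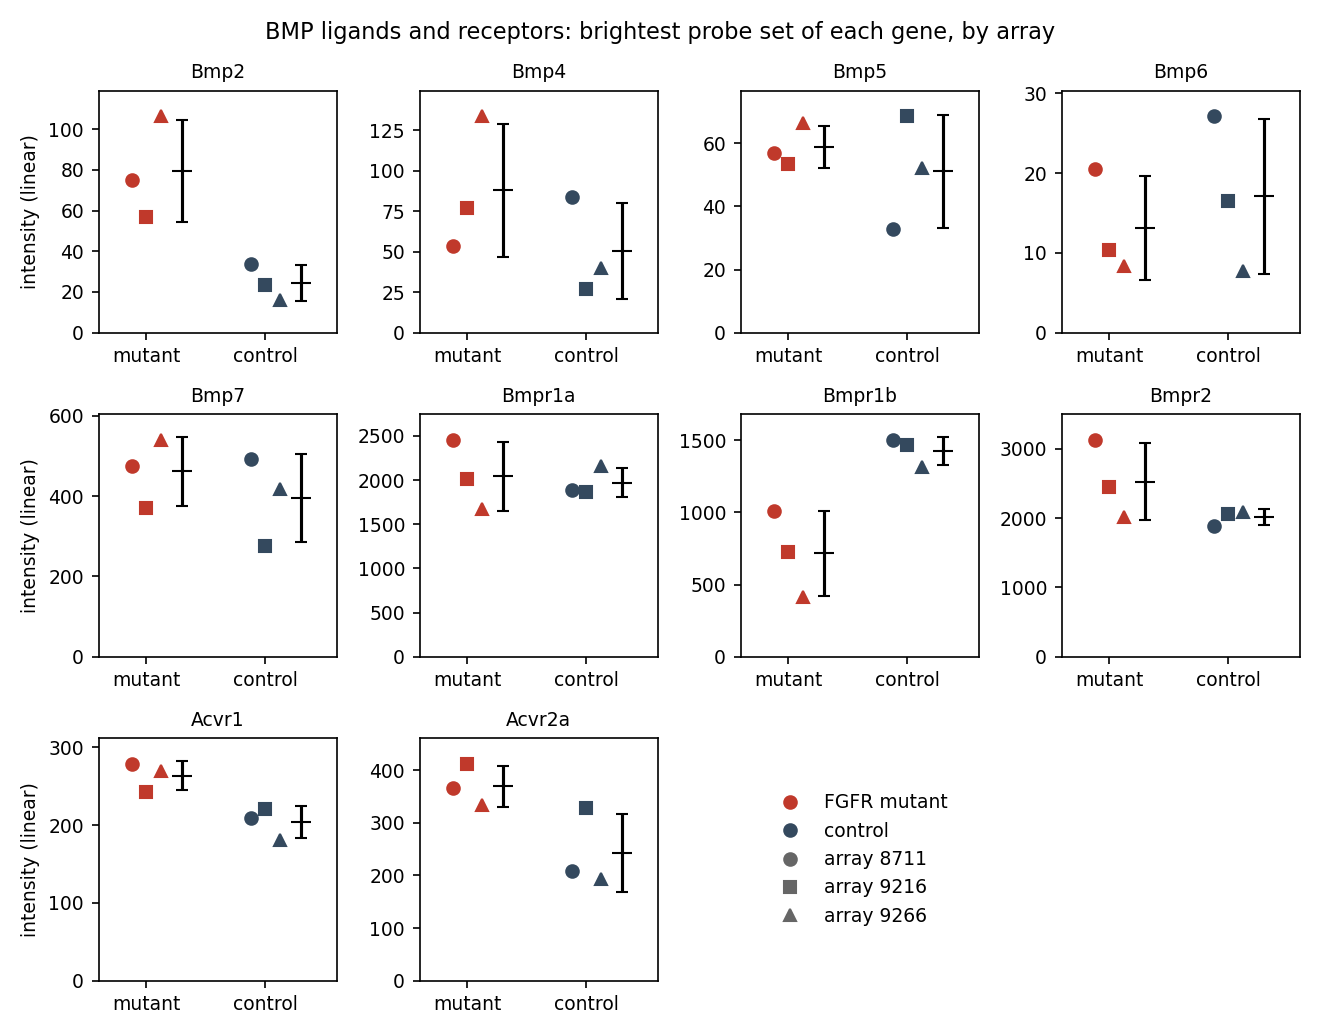
Linear intensity (y axis, from 0) of the brightest probe set of each of the 10 genes in the FGFR mutant and control arrays, with symbols for the title number and black marks for mean ± SD of 3 arrays. Bmp2, Acvr1 and Acvr2a have every mutant above every control array, Bmpr1b has every mutant below, and the groups overlap in the other panels.

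Among the ligands, Bmp2 had the highest mutant values relative to the controls. Bmp2, a ligand close in sequence to Bmp4, had intensities of 74.9, 56.7 and 106 in mutants 8711, 9216 and 9266, against 33.8, 23.5 and 16.1 in the controls in the same order. Every mutant array was above every control array, and the lowest mutant value, in 9216, was 56.7 against a highest control value of 33.8. The means were 79.3 ± 25.1 in the mutants and 24.5 ± 8.89 in the controls (SD, n = 3 each), a linear ratio of 3.24. The log2 difference was 1.64 (SE 0.40, 95% interval 0.70 to 2.58), with an adjusted p of 0.542 in limma and an unadjusted p of 0.00451, the smallest of the members. Within the numbers it was 1.11, 1.21 and 2.60 for 8711, 9216 and 9266, and it stayed between 1.39 and 1.89 with any 1 array left out. Bmp2 had 1 probe set, so no other probe set checks it.

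Bmp4, the dorsal ligand of the optic cup, had 53.3, 77.0 and 133 in the mutants and 84.0, 27.2 and 40.1 in the controls. The groups overlapped, since control 8711 was above mutants 8711 and 9216. The means were 87.9 ± 41.1 in the mutants and 50.4 ± 29.8 in the controls (SD, n = 3 each), a log2 difference of 0.83 (SE 0.52, 95% interval -0.39 to 2.06) with an adjusted p of 0.852 in limma. The numbers disagreed, with -0.64 for 8711, 1.45 for 9216 and 1.69 for 9266, and without both 8711 arrays the difference was 1.57. It was 0.48 without control 9216, 0.49 without mutant 9266, 1.27 without control 8711 and 0.39 with array weights, so its size depended on single arrays.

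Bmp7, a ligand of the optic cup and pigment epithelium, had probe sets that went in different directions. The brightest had 476, 370 and 539 in the mutants and 493, 277 and 417 in the controls, and the groups overlapped at a log2 difference of 0.24 (SE 0.28). A second tested probe set had 88.1, 68.2 and 190 in the mutants and 260, 91.3 and 209 in the controls, a difference of -0.70 (SE 0.53), also with overlap. The third, too dim to be tested, had 0.6, 5.3 and 11.4 in the mutants and 30.5, 25.8 and 13.9 in the controls, with each mutant below each control. In both dimmer probe sets the difference within the numbers was most negative for 8711, at -1.54 and -3.81. Averaged over the tested probe sets, the Bmp7 difference was -0.23, so the sign depends on the probe set. Without control 9216 the brightest was at 0.0076 and the second at -1.14, and without mutant 9216 they were at 0.39 and -0.39.

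Bmp5, a ligand of the Bmp6 and Bmp7 subgroup, had 56.9, 53.5 and 66.3 in the mutants and 32.7, 68.5 and 52.1 in the controls for its brightest probe set. Control 9216 was the highest of the 6 arrays, and the log2 difference of 0.25 (SE 0.35) became -0.03 without control 8711. The other Bmp5 probe sets had values of 1.0 to 17.6 in the mutants and 1.0 to 11.9 in the controls and were not tested. Bmp6, of the same subgroup, had 20.5, 10.4 and 8.4 in the mutants and 27.1, 16.5 and 7.7 in the controls. Its groups overlapped and its mean was under the level set for testing, so no p was computed.

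**Figure D2:**
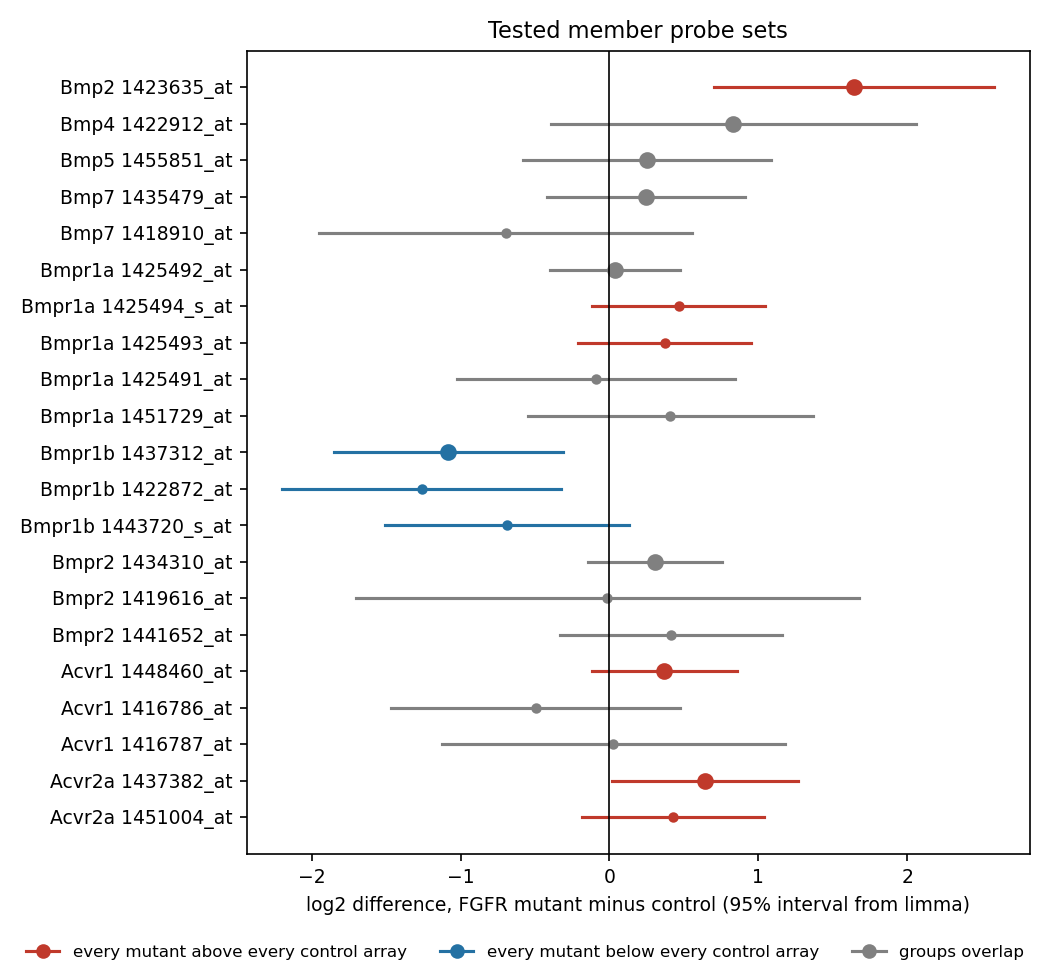
Log2 difference (x axis, FGFR mutant minus control) of the 21 tested member probe sets with 95% intervals from limma, large dots for the brightest probe set of a gene. The interval lies above 0 for Bmp2 and for 1 Acvr2a probe set and below 0 for 2 Bmpr1b probe sets, none of which passed adjustment.

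Among the type I receptors, Bmpr1b had lower values in the mutants in all 3 of its probe sets, each with no overlap between the groups. The brightest (1437312_at) had 1009.5, 723 and 414 in mutants 8711, 9216 and 9266, against 1499, 1467 and 1314 in the controls. The controls lay close together, with a coefficient of variation of 6.93%, while the mutants spread by 41.6%, with 9266 lowest. The means were 716 ± 298 in the mutants and 1427 ± 98.8 in the controls (SD, n = 3 each), a linear ratio of 0.502. The log2 difference was -1.08 (SE 0.32, 95% interval -1.85 to -0.31), with an adjusted p of 0.709 in limma and an unadjusted p of 0.0127. The second (1422872_at) had 25.7, 41.0 and 20.8 in the mutants and 58.4, 102 and 56.7 in the controls, a difference of -1.26 (SE 0.39) with an adjusted p of 0.736 in limma. The third (1443720_s_at) had 24.3, 39.1 and 30.8 in the mutants and 46.2, 67.7 and 41.6 in the controls, a difference of -0.69 (SE 0.34) with an adjusted p of 0.852 in limma. All 3 probe sets were thus lower in the mutant than in the control array of each number, by 0.41 to 1.66 in size on the log2 scale. With any 1 array left out, the brightest kept a difference between -1.38 (without mutant 8711) and -0.74 (without mutant 9266).

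The order of the mutant arrays in the brightest Bmpr1b probe set was that of the summed stalk and ventral cup markers, 12872 in 8711, 11304 in 9216 and 8075 in 9266, and the reverse of the summed pigment epithelium markers, 23329, 26676 and 37928. The other Bmpr1b probe sets did not follow this order, being highest in mutant 9216. Nor did the summed neural retina progenitor markers of the mutants, at 2604, 2185 and 3113. In the controls the brightest Bmpr1b probe set also fell from 8711 to 9216 to 9266. There the stalk and ventral cup sums (16906, 15995 and 15537) fell alike, and so did the pigment epithelium sums (16834, 15719 and 14592). These are 3 arrays a group, and the relation was not tested.

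Bmpr1a, the broadly expressed type I receptor, had no common direction over its 6 probe sets. The brightest (1425492_at) had 2449, 2007 and 1674 in the mutants and 1888, 1870 and 2156 in the controls, with means of 2043 ± 389 in the mutants and 1971 ± 160 in the controls (SD, n = 3 each). Its log2 difference was 0.04 (SE 0.18, 95% interval -0.40 to 0.47), so these arrays leave room for a change of up to that size in either direction, and its sign turned without mutant 8711 (-0.10). In another pair of probe sets each mutant was above each control, by small margins outside mutant 8711. One had 476, 299 and 316 in the mutants and 238, 259 and 276 in the controls, a log2 difference of 0.46 (SE 0.24), or 0.26 without mutant 8711. The other had 436, 275 and 285 in the mutants and 263, 237 and 253 in the controls, a difference of 0.37 (SE 0.25), or 0.16 without mutant 8711. The remaining 2 tested probe sets had -0.09 and 0.41 with overlapping groups, and the last had intensities of 0.8 to 9.2 and was not tested.

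**Figure D3:**
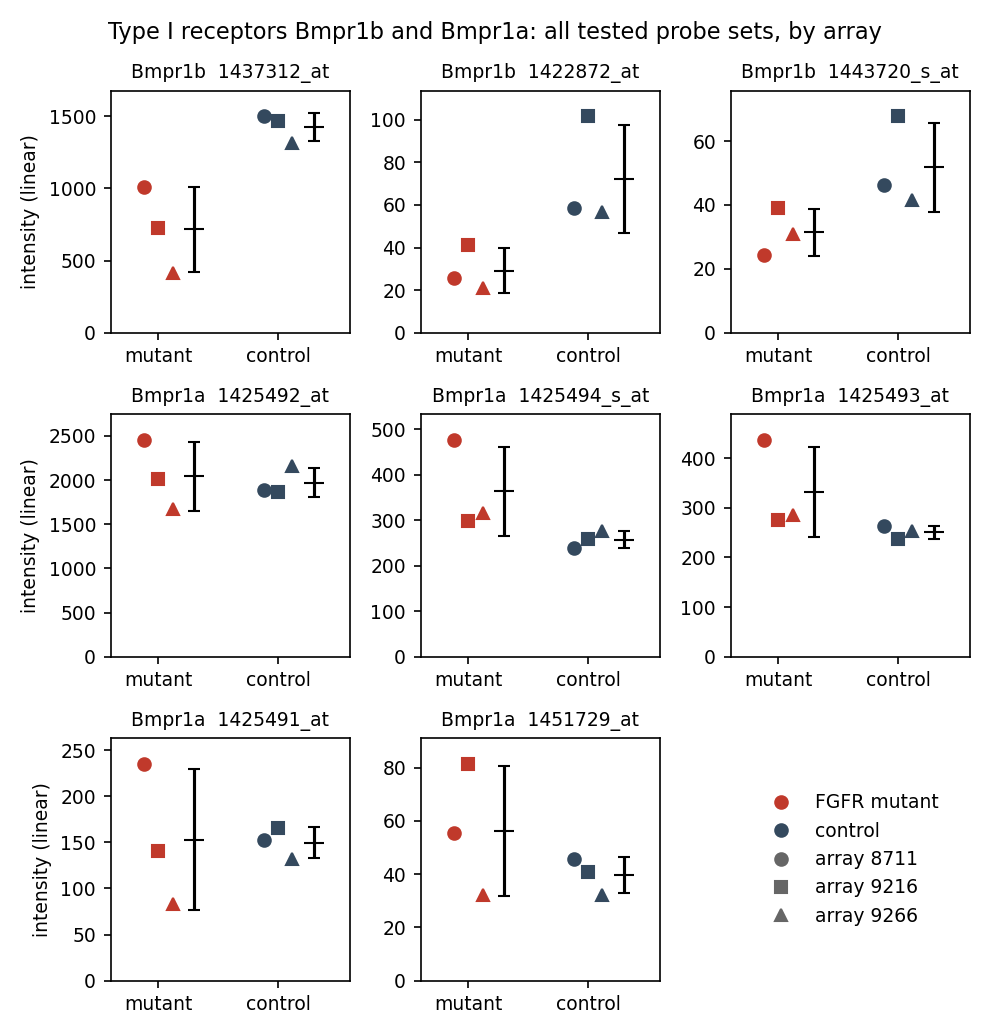
Linear intensity (y axis, from 0) of all tested Bmpr1b and Bmpr1a probe sets in the FGFR mutant and control arrays, with mean ± SD of 3 arrays in black. The 3 Bmpr1b panels have every mutant array below every control array, and mutant 8711 is the highest point in 4 of the 5 Bmpr1a panels.

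The promoter sequences of Bmpr1b and Bmpr1a are shown because every Bmpr1b probe set was lower in the mutants, while Bmpr1a had no common direction. They are the 250 bases before a RefSeq transcript start on GRCm38.p6, written 5 prime to 3 prime on the strand of the gene, which is the minus strand for both. Capitals mark matches on either strand to CCGGAA, the core bound by ETS factors, a family with members that act downstream of FGF, or to GGCGCC, a GC-rich letter string reported for BMP-responsive Smads. Bmpr1b has 3 starts in the table, and the upstream one (chr3:141982265-141982514) and a downstream one (chr3:141931421-141931670) are printed, followed by that of Bmpr1a (chr14:34502547-34502796).
Bmpr1b upstream start: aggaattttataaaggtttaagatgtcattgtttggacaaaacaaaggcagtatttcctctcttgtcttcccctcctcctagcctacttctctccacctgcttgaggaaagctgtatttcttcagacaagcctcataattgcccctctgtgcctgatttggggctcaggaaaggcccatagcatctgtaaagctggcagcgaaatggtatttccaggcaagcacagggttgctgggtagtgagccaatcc
Bmpr1b downstream start: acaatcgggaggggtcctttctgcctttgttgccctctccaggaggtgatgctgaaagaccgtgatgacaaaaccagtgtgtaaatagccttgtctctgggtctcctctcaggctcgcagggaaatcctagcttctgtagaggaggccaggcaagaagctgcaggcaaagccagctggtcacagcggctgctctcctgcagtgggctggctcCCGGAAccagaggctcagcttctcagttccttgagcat
Bmpr1a start: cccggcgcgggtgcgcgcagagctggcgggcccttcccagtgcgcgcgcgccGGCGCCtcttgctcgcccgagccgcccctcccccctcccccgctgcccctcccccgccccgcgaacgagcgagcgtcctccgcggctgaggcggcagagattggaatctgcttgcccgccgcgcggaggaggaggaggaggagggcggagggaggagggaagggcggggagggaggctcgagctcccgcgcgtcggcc
The upstream Bmpr1b window held 1 CpG pair at a GC content of 46.8%, and the downstream one held 5 at 56.4%. The Bmpr1a window held 36 CpG pairs at a GC content of 78.8%. The median over 32851 such windows was 6 CpG pairs and 52.4% GC. The third Bmpr1b window, which overlaps the downstream one, also held 5. The other receptor windows also held more than the median, with 22 CpG pairs for Bmpr2, 46 for Acvr1 and 49 for Acvr2a. An ETS core stood in the printed downstream Bmpr1b window. None stood in the third Bmpr1b window, which overlaps it, in the upstream Bmpr1b window or in the Bmpr1a one. Of all windows, 12% held 1 on either strand. The GC-rich string stood in the Bmpr1a window and in 9.59% of all windows. Among the other members, the Bmpr2 window also held the GC-rich string, and the Acvr1 and Bmp4 windows held an ETS core. These matches are letters in a window and say nothing on binding. Which start the probe sets report on was not analysed here.

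Within each array, Bmpr1b was set against Bmpr1a, which removes any shift common to the array. The log2 difference between their brightest probe sets moved by -1.12 between the groups, with SDs of 0.38 in the mutants and 0.22 in the controls (n = 3 each). Every mutant array was below every control array, and the exact permutation test gave p = 0.1 (two-sided), which 3 against 3 arrays cannot go below, or 0.3 after adjustment over 3 pairs. For the ligand pairs the same measure was 0.59 for Bmp4 against Bmp7 (exact permutation p = 0.2) and 0.81 for Bmp2 against Bmp4 (exact permutation p = 0.3), both with overlapping groups and an adjusted p of 0.3. No p under 0.1 was possible for these pairs, so the tests do not show that the ligands changed alike. For Bmp4 against Bmp7 the measure was 0.76 under quantile normalization and 1.06 with the mean of the tested probe sets, each with an exact permutation p of 0.1 and groups apart, and 0.36 without mutant 9266. It was 0.92 without mutant 8711. For Bmp2 against Bmp4 it was 1.16 without control 9216 (exact permutation p = 0.1) and 0.52 without mutant 8711 (exact permutation p = 0.4).

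**Figure D4:**
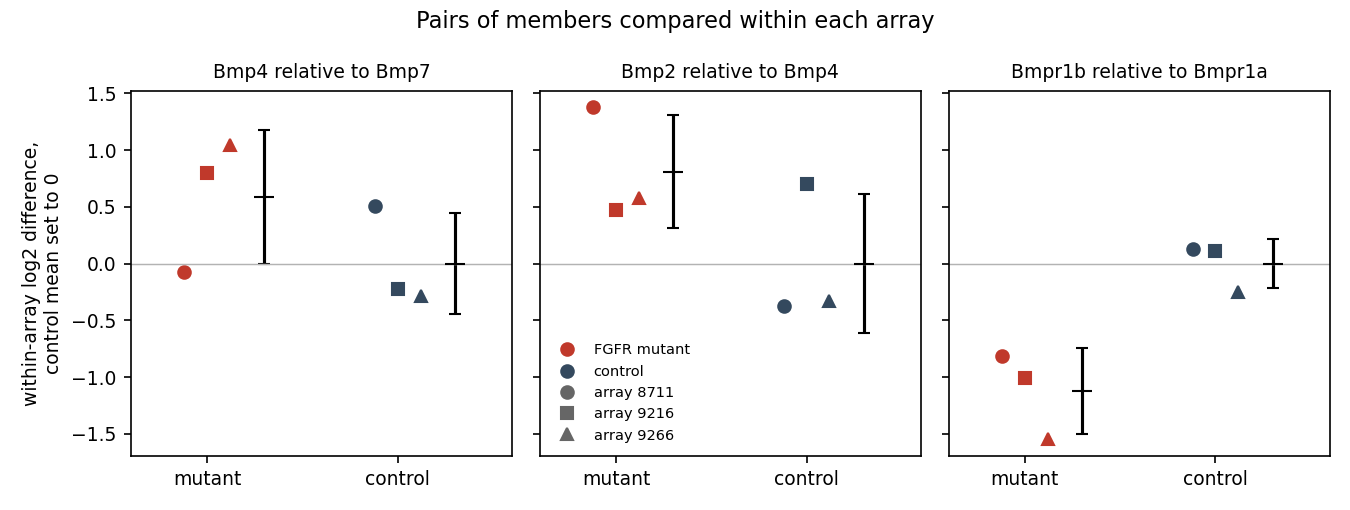
Within-array log2 difference between the brightest probe sets of 2 member genes (y axis, mean of the controls set to 0) in the FGFR mutant and control arrays, with mean ± SD of 3 arrays in black. The groups separate for Bmpr1b relative to Bmpr1a, where the mutant mean is -1.12, and overlap for both ligand pairs.

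Acvr1, a type I receptor that binds Bmp6 and Bmp7 among others, had 278, 242 and 270 in the mutants and 210, 221 and 181 in the controls for its brightest probe set (1448460_at). Each mutant was above each control, with means of 263 ± 18.7 in the mutants and 204 ± 20.4 in the controls (SD, n = 3 each) and a log2 difference of 0.37 (SE 0.21, adjusted p of 0.852 in limma). Its dimmer probe sets had differences of -0.49 (SE 0.41) and 0.03 (SE 0.49) with overlapping groups, so they do not share the direction, and the mean over the 3 was -0.03.

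Of the type II receptors, Acvr2a, which also serves activins, had higher values in the mutants in both probe sets. The brightest (1437382_at) had 365, 411 and 333 in the mutants and 207, 327 and 193 in the controls. Control 9216 came close to the mutants, 327 against 333 in mutant 9266, but the groups did not overlap. The means were 370 ± 38.9 in the mutants and 242.5 ± 73.8 in the controls (SD, n = 3 each), a log2 difference of 0.64 (SE 0.26, 95% interval 0.02 to 1.27), with an adjusted p of 0.852 in limma and an unadjusted p of 0.0458. The second (1451004_at) had 154, 115 and 121 in the mutants and 104, 81.8 and 103 in the controls, a difference of 0.42 (SE 0.26) with no overlap. With any 1 array left out, the brightest ran from 0.50 (without control 9266) to 0.88 (without control 9216), with 0.65 without mutant 8711.

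Bmpr2, the type II receptor specific for BMPs, had 3123, 2444 and 2016 in the mutants and 1883, 2068 and 2091 in the controls for its brightest probe set. Mutant 8711 was the highest and mutant 9266 lay within the controls. The log2 difference was 0.31 (SE 0.19, 95% interval -0.14 to 0.76), and 0.14 without mutant 8711. The other Bmpr2 probe sets had differences of -0.01 (SE 0.71) and 0.41 (SE 0.31) with overlapping groups. Over all members, 7 of the 21 tested probe sets had their highest value in mutant 8711 and 6 in mutant 9266.

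The rest of the pathway was read from 5 lists, with 1 probe set for each gene. Of all 12282 genes tested this way, 0.00% passed an adjusted p of 0.05, and 53.6% had a log2 difference above 0, with a median of 0.03. At an unadjusted p under 0.05, 4.40% were higher and 2.52% lower, and groups did not overlap for 9.44% with higher and 5.43% with lower mutant values. Of 12 other BMP and GDF ligands, only Gdf2, a ligand that signals in endothelium, was bright enough to test. It had 41.1, 28.3 and 33.4 in the mutants and 23.3, 40.3 and 28.2 in the controls, a log2 difference of 0.17 with overlap. Bmp3, Gdf6 and Gdf7 had no probe set with a single symbol in the table used here, and the other 8 were under the level.

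Of 11 activin-type receptors and BMP co-receptors, 8 were tested, 4 with a higher and 4 with a lower mean in the mutants and a median log2 difference of 0.01. Tgfbr3, the co-receptor betaglycan, had 384, 496 and 554 in the mutants and 325, 351 and 311 in the controls, a difference of 0.52 (SE 0.21), and was the 1 gene with an unadjusted p under 0.05. Of the 8, groups did not overlap for 1 higher, Tgfbr3, and 1 lower, Eng, at -0.99 (SE 0.46). The shares over all genes were 9.44% and 5.43%. Of 12 Smads and their regulators, 11 were tested, 4 higher and 7 lower with a median of -0.26, which was -0.0041 without mutant 8711. None had an unadjusted p under 0.05 in limma and 0 passed adjustment. The smallest p values belonged to the Smad repressors Skil, at 0.42 (SE 0.20) with each mutant above each control, and Ski, at -0.35 (SE 0.24) with overlap. Dimmer probe sets had 0.0052 (SE 0.35) for Skil and -0.27 (SE 0.48) for Ski, both with overlap.

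Of 18 secreted antagonists and modulators, 11 were tested, 5 higher and 6 lower with a median log2 difference of -0.06, or 0.39 without mutant 8711. Fst, the gene of follistatin, which binds activins and some BMPs, had 421, 599 and 449 in the mutants and 202, 348 and 268 in the controls. Each mutant was above each control, with a difference of 0.86 (SE 0.27) and an adjusted p of 0.742 in limma. A dimmer Fst probe set had 17.6 in mutant 8711 but 210 and 219 in mutants 9216 and 9266, against 49.5 to 68.4 in the controls. Chrdl1, a chordin-like antagonist also known as ventroptin, which marks the ventral retina in chick, had 61.6, 72.1 and 33.5 in the mutants and 111, 91.8 and 118 in the controls. Its difference was -0.98 (SE 0.35, adjusted p of 0.850 in limma), and a second probe set had 33.8 to 39.3 in the mutants and 76.4 to 95.1 in the controls, at -1.13 (SE 0.27). Another tested Chrdl1 probe set had 0.04 with overlap, at means of 16.2 in the mutants and 16.5 in the controls. The last, not tested, had 2.0, 1.6 and 1.8 in the mutants and 29.2, 21.1 and 21.2 in the controls. The antagonist gene Nog was under the level.

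Of 15 genes known to respond to BMP signalling, 12 were tested, 6 higher and 6 lower with a median log2 difference of -0.06, or 0.22 without control 9266. Id1 and Id2, inhibitors of basic helix-loop-helix factors, went in opposite directions. Id1 had 17.8, 22.3 and 34.7 in the mutants and 55.0, 41.6 and 85.0 in the controls, a difference of -1.21 (SE 0.41, adjusted p of 0.784 in limma). Id2 had 1986, 1916 and 1937 in the mutants and 1351, 1612 and 1165 in the controls, a difference of 0.51 (SE 0.17, adjusted p of 0.778 in limma). The groups did not overlap for either gene, while dimmer Id2 probe sets had 0.20 and -0.37 with overlap. Id1 and Id2 were the only genes of the list with an unadjusted p under 0.05, and 0 passed adjustment. Counting Hey1, at 0.63 (SE 0.31), groups did not overlap for 2 higher and 1 lower of the 12. The shares over all genes were 9.44% and 5.43%.

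**Figure D5:**
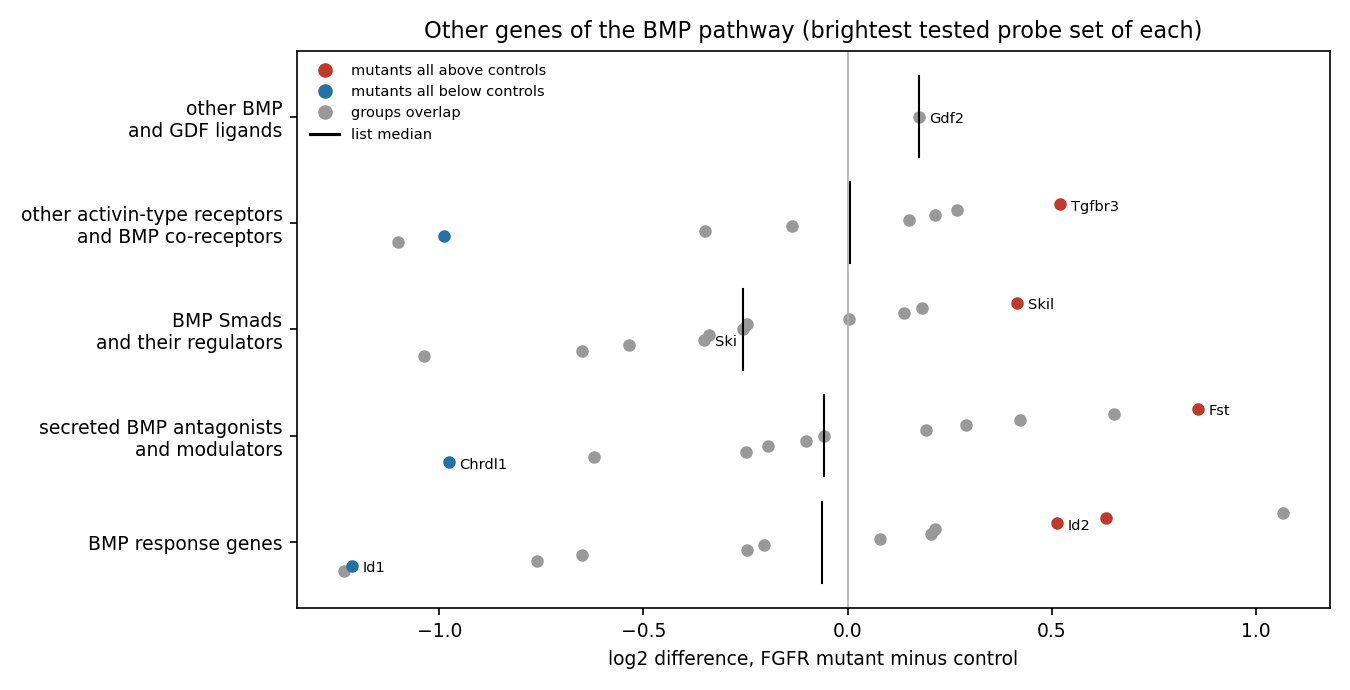
Log2 difference (x axis, FGFR mutant minus control) of the tested genes in 5 lists of the BMP pathway, 1 dot a gene by its brightest probe set, coloured where the groups do not overlap, with list medians as black lines. List medians lie between -0.26 and 0.17, and genes such as Fst and Chrdl1 or Id2 and Id1 lie on opposite sides of 0.

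Genes with array profiles most like those of single members were found by the root mean square distance of log2 values, each centred on its control mean, over the 6 arrays and 12282 genes. Nearest to Bmp2 were 2610027K06Rik (0.16), Kcnj3, a potassium channel gene (0.22), and Bace2, a protease gene (0.24), against a median distance of 1.24 over all genes. Kcnj3 had 97.6, 46.9 and 117 in the mutants and 32.2, 25.2 and 14.3 in the controls. Nearest to Bmp4 were Shf (0.21), Gm17250 (0.25) and Gprc5c (0.25), against a median of 0.89, and nearest to Bmp7 were Srrd (0.08), Slc17a5 (0.085) and Rcan3 (0.09), against a median of 0.47. These distances describe 6 arrays only.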

How the data were processed

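Gene expression was measured on Affymetrix arrays of microdissected optic fissure, 3 FGFR mutant and 3 control, grouped by the array titles. Per the labels, Trizol-extracted total RNA was biotin-labelled, and the submitters' processing notes name MAS5 without a version. The authors' deposited values are linear intensity values, already scaled so that the 2% trimmed mean was 150 in every array, and no further normalization was applied.

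Before testing, 1.7 (the 10th percentile of all intensities) was added and log2 taken. Probe sets with a mean log2 value under the 40th percentile (4.07, an intensity of 15.1) were not tested, leaving 27022 of 45037. Of the 45037, 34945 had 1 gene symbol, 932 several and 9160 none, and 1 probe set naming a member with another gene was left out. For each gene the brightest probe set, by mean log2 value, was used. Groups were compared with limma 3.58.1 (lmFit, eBayes with trend and robust, statmod 1.5.0) in R 4.3.3, with Benjamini-Hochberg adjustment and a threshold of 0.05. Differences between pairs of members used exact permutation over arrays. The test was tried on simulated data. Figures used Python 3.11.15 and matplotlib 3.10.9.

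All members were named, and from each pathway list the genes with unadjusted p under 0.05 (up to 5), or otherwise the 2 with the smallest p. The 2 dimmest Chrdl1 probe sets, Nog, Eng and Hey1 were added after their values were seen. Members and lists were chosen with earlier results of these data known. Promoter windows were from RefSeq (GRCm38.p6) and matched 8 of the 10 members. The list symbol Hfe2 was read as Hjv. Same-numbered arrays deviated together for 9216 (correlation of 0.48) but not for 8711 (0.05) or 9266 (-0.11), so the numbers were not taken as pairs. The alternatives tried were other added values and filters, quantile normalization, median centring, the title number as a block, a plain variance model, array weights, the mean of a gene's probe sets, and leaving out arrays.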

Additional observations from a re-analysis of the deposited data

How the results depend on the processing

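Limits: 3 arrays a group, 1 doubtful array, and dim probe sets. The 21 tested member probe sets gave 328 values under the alternatives, of which 19 had the opposite sign and 1 passed the threshold. Other filters, the block and the plain variance model cannot change a log2 difference, so only the remaining alternatives could turn a sign. The share of kept signs among the 328 is therefore no measure of stability. Bmp2, Bmp4, Acvr2a and Bmpr1b kept their sign in all alternatives, Bmpr1b from -1.38 to -0.74, -1.52 to -0.86 and -0.85 to -0.38 by probe set. The sign also held for Bmp7 1418910_at, Acvr1 1448460_at and 1416786_at, and Bmpr2 1434310_at and 1441652_at. It held as well for Bmpr1a 1425493_at, 1425494_s_at and 1451729_at, so a kept sign was common among the members. Array weights gave mutant 8711 a weight of 0.151 and control 8711 a weight of 5.98, against 0.625 to 1.59 in the other arrays. The weighted control mean thus rested mostly on 1 array. In this setting 184 probe sets passed, and 1 of them was a member, the brightest of Bmpr1b (-1.22, adjusted p of 0.0440 in limma). The adjusted p of this probe set otherwise ran up to 0.999. Without mutant 8711, and without both 8711 arrays, 1 of all probe sets passed, and no member. The replicate block cannot change the values (1.64 for Bmp2) or the 3 pair values (0.59, 0.81 and -1.12), as each number has 1 array of each group. The counts stayed at 2 higher and 2 lower with 0 called. For the pairs, an exact sign-flip test over the 3 numbers gave p = 0.5, 0.5 and 0.25, in the same order. No p under 0.25 was possible there.

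Counts that moved: unadjusted p values under 0.05 were met by 1 higher and 1 lower member under median centring, with 3 higher without overlap; at the 60th percentile filter, 1 higher and 1 lower, with 1 lower without overlap, as fewer probe sets were tested; without trend and robust fitting, 1 higher. With 1 array left out, these ran from 1 to 2 higher and 1 to 2 lower, and all probe sets called ran from 0 to 1. Counts without overlap then ran from 6 to 8 higher and 3 to 5 lower, with no share over all probe sets beside them. Median centring put all probe sets at 0.06 on the log2 scale, against -0.05.

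Signs that turned (the cause was not tested): Bmpr2 1419616_at was 0.0489 with 16 added, 0.14 under quantile normalization, 0.10 under median centring, 0.63 with array weights, 0.33 without control 9216, 0.75 without mutant 8711 and 0.73 without both 8711 arrays, with a lowest value of -0.48 on leaving 1 array out. Bmpr1a 1425492_at was -0.0316 under quantile normalization, -0.00647 with array weights, -0.10 without mutant 8711 and -0.13 without both 8711 arrays, up to 0.17 on leaving 1 out. Bmpr1a 1425491_at was 0.0215 under median centring and 0.28 without mutant 9266, down to -0.46 on leaving 1 out. The brightest Bmp7 probe set was -0.12 with array weights, and Bmp5 -0.0258 without control 8711 (up to 0.49 on leaving 1 out) and -0.00444 without both 8711 arrays. Acvr1 1416787_at was -0.03 without control 9266, -0.13 without mutant 9216 and -0.31 without mutant 9266, up to 0.51 on leaving 1 out. With the mean of a gene's probe sets, Bmp7 was -0.23 and Acvr1 -0.0332.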
